A study of Homo sapiens with 18 samples.

Results

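Vehicle-treated OVCAR-3 cells made up 6 of the 18 sequenced libraries, and were chosen as every library labelled DMSO. The line, OVCAR-3, is an established one and was derived from high-grade serous ovarian carcinoma (HGSC). Of the 6 libraries, 3 came from cells that had received DMSO for 4 h and 3 from cells that had received it for 24 h. The other 12 libraries, not described here for their own sake, came from cells given 1 µM i-BET858 or 1 µM i-BET151, inhibitors of the bromodomain and extra-terminal (BET) proteins, for the same times. Cells of every group were grown in 12-well plates in RPMI medium, and their treatments were given in a medium that the labels call stripped, without saying what was removed from it. DMSO alone stands for the vehicle in which the inhibitors were given, so that both groups lacked any inhibitor. No untreated culture and none from the moment of DMSO addition was analysed here. Time with DMSO, time in stripped medium and time in culture therefore cannot be told apart. All cells derive from 1 line, and the replicates are given by the study as biological replicates of it.

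High-grade serous carcinoma is thought to arise largely from secretory cells of the fallopian tube. Such cells express the transcription factor PAX8 and, like the tumours, carry the glycoprotein MUC16 (the CA125 antigen) and secrete the protease inhibitor WFDC2 (HE4). Amplification of CCNE1, which encodes cyclin E1, is a known lesion of these tumours and drives entry into S phase. BET proteins, the targets of the inhibitors, read acetylated histones and help RNA polymerase II to elongate. A BET-inhibitor experiment is thus read against the vehicle cells, whose abundant, lineage, receptor and silent genes are described first, followed by DMSO at 24 h against DMSO at 4 h.

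Library totals ranged from 27534213 to 36497446 counts. Counts were scaled to CPM, that is, to a common library size with trimmed-mean factors. The limit that a count of 0 allows, 3 counts, was 0.0822 to 0.109 CPM over the libraries and covers counting error only. Replicate 3 stood apart at both times. Its libraries had a count in 20642 genes (4 h) and 18987 genes (24 h), against 23674 to 24838 in the other 4 libraries. The signal recognition particle RNAs RN7SL1 and RN7SL2 together took 0.0734% and 0.0617% of its counts, against 0.00279% to 0.00427% elsewhere. In the 500 most variable genes, the first principal component (61.9% of the variance) set replicate 3 at 24 h apart from the other libraries, and the second (27.4%) did so for replicate 3 at 4 h. With time in the model, edgeR's quasi-likelihood test called 312 of 16473 genes (1.89%) between replicate 3 and replicates 1 and 2. The labels name no batch for it, and the count of calls and the medians of the leading lists are given with and without it.

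Coordinates are those of GRCh38 with GENCODE 44 genes. Levels of different genes were compared only per length, as length-scaled transcript levels (TPM) from the counts and the union of each gene's exons. In all 6 libraries, 13247 genes reached a TPM of at least 1. These included 11530 of 19869 protein-coding genes (58.0%). No count was found in any library for 3056 protein-coding genes (15.4%). A median TPM of at least 100 was reached by 1808 protein-coding genes, and 101 of these reached at least 1000. Without replicate 3 the number at a TPM of at least 1 was 14080 genes, of which 833 fell under 1 in a library of replicate 3.

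The most abundant nuclear transcripts came from the translation machinery, the cytoskeleton, glycolysis and chaperones. RPS16, a protein of the small ribosomal subunit, had the highest mean over the 6 libraries (9905 ± 1988 TPM (SD, n = 6)). It was followed by RPS2 of the same subunit (8942 ± 1109 TPM) and by TMSB10, the actin-binding thymosin beta 10 (8881 ± 861 TPM). This order rested on replicate 3. In replicates 1 and 2 the mean was 9266 TPM for TMSB10, 8788 TPM for RPS16 and 8603 TPM for RPS2, and TMSB10 was above RPS16 in 3 of the 6 libraries. RPS3 reached 4823 ± 483 TPM and RPL8, of the large subunit, 4338 ± 440.4 TPM. Among the 15 highest were also the glycolytic enzymes GAPDH (4595 ± 472 TPM) and ENO1 (3888 ± 477 TPM) and the cytoplasmic actins ACTG1 (4531 ± 674 TPM) and ACTB (4021 ± 734 TPM). Keratin 8 (KRT8, 3341 ± 454 TPM) and the chaperone HSP90AA1 (3306 ± 707 TPM) closed the list. Processed pseudogenes took the 4 remaining places, namely RPS2P5, RPL41P1, RPL39P3 and RPS27P3, with means between 3774 and 6081 TPM. These copies are nearly identical to ribosomal protein genes, so the division of reads between parent and copy is uncertain. Of the 100 highest nuclear genes by mean TPM, 27 encode cytosolic ribosomal proteins. Mitochondrially encoded genes were left out of this ranking, and the highest of them, MT-ND3, had a mean of 3868 TPM.

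Messenger RNAs of ribosomal proteins and translation factors are known for a 5′ terminal oligopyrimidine start, a C followed by a run of pyrimidines, through which mTOR signalling sets their translation. The starts of RPS16, RPS3, the elongation factor EEF1A1 and FBL, a nucleolar protein, and of 4 others are shown to let the feature be seen. They are examples, and do not say how common the run is among abundant genes. Each line holds 10 bases before and 15 bases from a RefSeq start of the gene (GRCh38.p14), 5′ to 3′ on the transcribed strand. Capitals mark a run of at least 5 bases that opens with C at the start and goes on with C or T only. Any other start of the same gene was not examined. RPS16 is read from chr19:39435935-39435959 (minus strand), RPS3 from chr11:75399508-75399532 (plus strand), EEF1A1 from chr6:73521018-73521042 (minus strand) and FBL, the rRNA methyltransferase fibrillarin, from chr19:39846365-39846389 (minus strand). GAPDH is read from chr12:6535254-6535278 (plus strand), TMSB10 from chr2:84905646-84905670 (plus strand), PAX8 from chr2:113278907-113278931 (minus strand) and CCNE1 from chr19:29811981-29812005 (plus strand). The windows of GAPDH and EEF1A1 lie inside their annotated genes (chr12:6534512-6538374 and chr6:73489308-73525587), so the outermost start is not the one shown.
RPS16: ccctagctttCCTTTTCCggttgcg
RPS3: cgagccacttCCTTTCCTTTCagcg
EEF1A1: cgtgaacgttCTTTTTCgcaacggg
FBL: cgcctgcgctCTTTTCCacgtgcga
GAPDH: gtgcatccctgtccggatgctgcgc
TMSB10: ccgctcttttgtttcttgctgcagc
PAX8: ccgggtggatgggaacaaacttcag
CCNE1: agccgggcgcaggagcagccggcgc
At the starts shown, the first 4 genes open with runs of 8, 11, 7 and 7 bases, and the last 4 hold no such run. Among all 27305 promoters of the RefSeq table, 1104 (4.04%) had such a start. Only 63 of the 79 cytosolic ribosomal protein genes matched the table, under the 80% that a check over the list requires, so nothing is read from the list.

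The defining serous markers were expressed in every library. PAX8 (ENSG00000125618.17, chr2:113215997-113278921) lay at 219, 278 and 285 TPM at 4 h and 331, 299.8 and 198 TPM at 24 h. WFDC2 (ENSG00000101443.18, chr20:45469753-45481532) lay at 485, 612 and 859.6 TPM at 4 h and 501, 488 and 862 TPM at 24 h, and was highest in both libraries of replicate 3. CCNE1 (ENSG00000105173.14, chr19:29811991-29824312) lay at 265, 294 and 279 TPM at 4 h and 302, 317 and 255 TPM at 24 h, the narrowest range of the 4 markers relative to its level. MUC16 (ENSG00000181143.15, chr19:8848844-9010390) lay at 9.79, 28.1 and 25.6 TPM at 4 h and 30.0, 24.0 and 4.62 TPM at 24 h. MUC16 thus varied most of the 4, with low values in replicate 1 at 4 h and in replicate 3 at 24 h. By median TPM, WFDC2 ranked 235, CCNE1 512, PAX8 522 and MUC16 5605 among protein-coding genes.

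All 29 genes of the serous lineage list, these 4 included, had a TPM of at least 1 in all 6 libraries. By the median over the libraries, which is the level given for a gene wherever a single TPM is printed below, KRT8 stood at the top (3428 TPM), followed by the secreted matrix protein SPON1 (2623 TPM), KRT19 (2173 TPM) and KRT18 (1986 TPM), and the kallikrein protease KLK8 at the bottom (10.4 TPM). Neighbours in this order mostly overlapped over the libraries, namely in 25 of 28 neighbouring pairs. The Müllerian transcription factors SOX17 (317 TPM), EMX2 (236 TPM), WT1 (66.1 TPM) and MECOM (21.5 TPM) were all present. So were the epithelial adhesion genes EPCAM (760.2 TPM), CLDN3 (891 TPM) and CDH1 (177 TPM) and the surface antigens MSLN (214 TPM) and FOLR1 (59.8 TPM).

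Markers of other cell types were mostly near 0. Of 8 fibroblast markers, COL1A1 alone reached a median TPM of 1 (13.1 TPM), while COL3A1 had no count and DCN, THY1 and FAP at most 3 counts in a library. Of 9 leukocyte markers CD14 was highest (3.05 TPM), and the pan-leukocyte gene PTPRC lay at 0.0119 TPM. CD3D, CD3E, MS4A1 and NKG7, genes of T, B and natural killer cells, had no count. ERG (3.64 TPM) led the 8 endothelial markers, of which EMCN had no count and PECAM1 lay at 0.0718 TPM. Of 8 hepatocyte markers SERPINA1 was highest (10.5 TPM), and APOB and TTR had no count. The summed TPM over the libraries ran from 11.0 to 18.7 for fibroblast, 3.18 to 6.19 for leukocyte, 5.36 to 7.39 for endothelial and 18.4 to 21.0 for hepatocyte markers. In bulk RNA, few cells of a type and little RNA per cell cannot be told apart.

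Some lineage genes outside the serous list were expressed. Of 8 mesothelial markers, 5 reached a median TPM of 1, and 2 of them a TPM of 1 in all libraries. UPK1B, a uroplakin from this list, lay at 488 TPM with exons that overlap another annotated gene on its strand. Among the mesothelial genes under 1, CALB2 lay at 0.458 TPM and ITLN1 at 0, with at most 2 counts in a library. Of 8 ciliated cell markers, 4 reached a TPM of 1 in all libraries, led by CAPS (20.3 TPM). FOXJ1, the master regulator of motile cilia, lay at 6.98, 6.90 and 3.70 TPM at 4 h and 16.4, 14.2 and 9.68 TPM at 24 h. The axonemal motor gene DNAH9 lay near 0 (0.0163 TPM). PRAME, a cancer-testis antigen, was the highest of 8 germ line markers (81.7 TPM), and DDX4, DAZL and MAGEA4 had no count. MAP2, a neuronal microtubule protein, led the 8 neural markers (7.11 TPM), and STMN2, NEUROD1 and OLIG2 had no count.

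**Figure D1:**
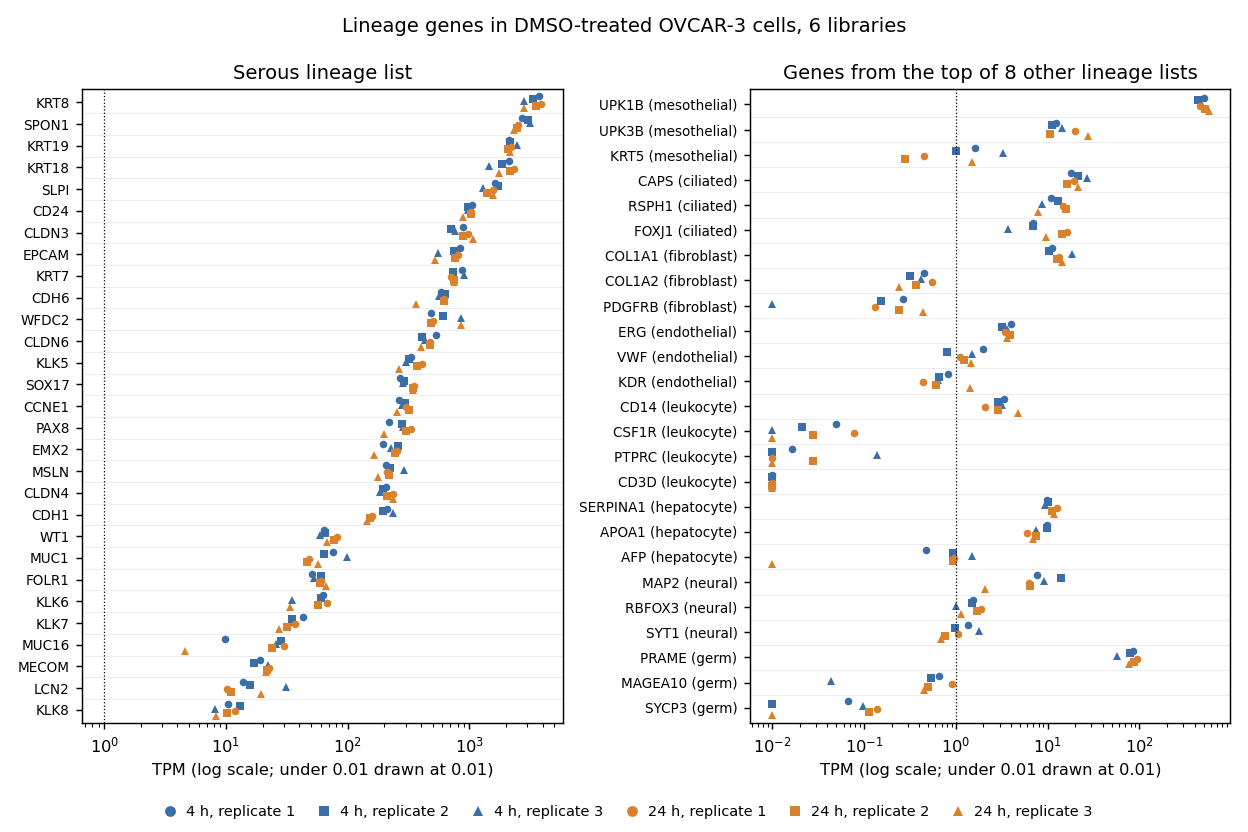
TPM on a log scale in each of the 6 DMSO libraries, for the serous lineage list (left) and genes from the top of 8 other lineage lists (right). Each point is 1 library, with blue for 4 h and orange for 24 h, and the dotted line marks a TPM of 1. All 29 serous genes lie above 1, with MUC16 spread from 4.62 to 30.0, and the other lists are led by UPK1B (488 TPM) and PRAME (81.7 TPM).

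Of 24 hormone receptor genes, nuclear receptors and the membrane oestrogen receptor GPER1, 17 had a TPM of at least 1 in all libraries. The orphan receptor NR2F6 was highest (225 TPM) and its range lay above that of the next, the retinoic acid receptor RARG (65.6 TPM). Among the others were the retinoid partner receptors RXRA (34.2 TPM) and RXRB (31.1 TPM), the vitamin D receptor VDR (27.9 TPM) and the glucocorticoid receptor NR3C1 (10.5 TPM). Oestrogen receptor transcripts were scarce: ESR1 lay at 0.215, 0.289 and 0.0918 TPM at 4 h and 0.214, 0.334 and 0 TPM at 24 h, and ESR2 had a median of 0.184 TPM. The progesterone receptor PGR had a median of 0.0420 TPM, and RXRG was last (0.0410 TPM). Exons of ESR1, ESR2, NR2F6, NR2F2 and RXRA overlap another annotated gene on the same strand, and reads shared with it may have been left out of the counts.

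Of the receptors for peptide hormones, the oxytocin receptor OXTR was highest (71.1 TPM). The kisspeptin receptor KISS1R reached 8.37 TPM. No count was found for the follicle-stimulating hormone receptor FSHR, and the luteinizing hormone receptor LHCGR lay at 0.0523 TPM.

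Of 58 receptor tyrosine kinases, 33 had a TPM of at least 1 in all libraries. EPHA2, a receptor for ephrin-A ligands, stood at the top with 503, 477 and 534 TPM at 4 h and 403, 416 and 352 TPM at 24 h. RYK, a Wnt co-receptor, came next (160.3 TPM), then the collagen receptor DDR1 (137 TPM). The ranges of RYK and DDR1 overlapped, and the range of EPHA2 lay above both. Of the ERBB family, ERBB2 (56.3 TPM) and ERBB3 (42.9 TPM) had higher medians than EGFR (21.1 TPM) and ERBB4 (15.5 TPM). ERBB2 and ERBB3 overlapped in range, as did EGFR and ERBB3 at their ends. FGFR4 (46.3 TPM) led the fibroblast growth factor receptors. MET, the hepatocyte growth factor receptor, reached 8.09 TPM, the insulin receptor INSR 4.79 TPM and IGF1R 1.21 TPM. ROS1, EPHA8 and TIE1 had a median of 0, and PDGFRA lay at 0.0248 TPM.

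All but 2 of 13 receptors of the TGFβ family had a TPM of at least 1 in every library, with the type II receptor TGFBR2 at the top (57.1 TPM) and ACVRL1, of endothelial cells, at the bottom (0.130 TPM). Of 23 cytokine and chemokine receptors, 15 did so. IL1R1, the signalling receptor for interleukin 1, was highest (136 TPM), followed by TNFRSF1A (96.7 TPM) and the interferon gamma receptor IFNGR1 (54.7 TPM). CXCR2 had no count. IFNAR2 and IL10RB lay at 0.0502 TPM and 0.296 TPM, but both share their exons with an annotated readthrough gene, so their levels are uncertain.

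**Figure D2:**
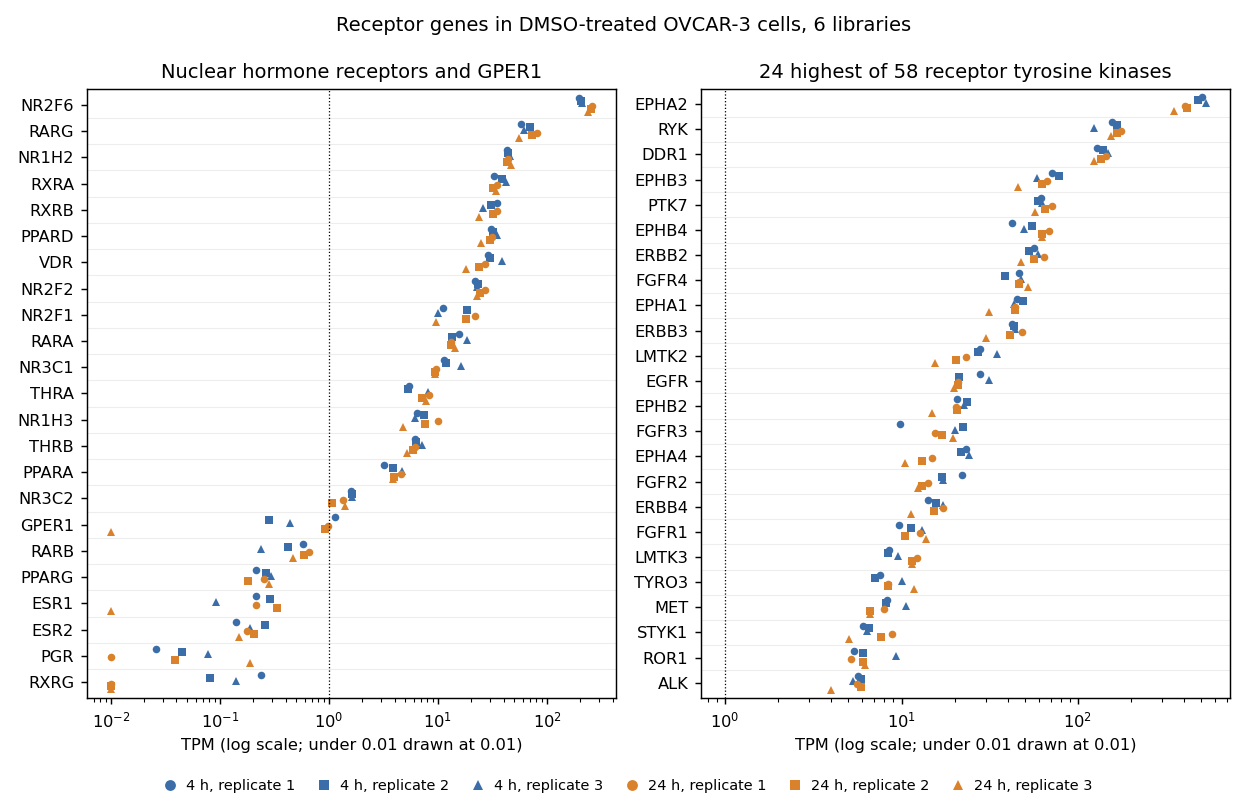
TPM on a log scale in each of the 6 DMSO libraries for nuclear hormone receptors reported here with GPER1 (left) and for the 24 highest of 58 receptor tyrosine kinases (right). Points are libraries, blue for 4 h and orange for 24 h, and values under 0.01 are drawn at 0.01. NR2F6 and EPHA2 stand above the next gene of their lists, and ESR1, ESR2 and PGR lie under the dotted line at a TPM of 1.

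Genes of the BET family were then read. BRD2 lay at 88.5, 86.1 and 79.9 TPM at 4 h and 71.2, 77.7 and 41.3 TPM at 24 h. BRD3 lay at 42.1, 42.2 and 49.3 TPM at 4 h and 42.6, 39.7 and 37.8 TPM at 24 h. BRD2 was above BRD3 within each library, and the testis form BRDT was near 0 (0.0544 TPM). Exons of BRD2 overlap another annotated gene on the same strand.

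Several gene families of other tissues were mostly silent. Of 400 olfactory receptor genes, 352 had no count in any library and none had a TPM of 1 in all of them. No count was found for 91 of 94 keratin-associated protein genes of hair, 20 of 24 bitter taste receptor genes, 11 of 13 interferon alpha genes, 35 of 40 beta defensin genes and all 10 pregnancy-specific glycoprotein genes. Of the HOX genes, which give cells their position along the body axis, 8 of 11 in the HOXA cluster had a TPM of at least 1 in all libraries, with HOXA5 highest (130.2 TPM). The same held for 5 of 10 genes of HOXB, 3 of 9 of HOXC and 2 of 9 of HOXD. Of 55 keratin genes 13 were on at this level, and of 24 claudin genes 11, led by CLDN3.

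DMSO at 24 h was then set against DMSO at 4 h. In the edgeR quasi-likelihood fit of the 6 libraries, 0 of 16473 genes (0.0%) passed an adjusted p under 0.05 with a fold change of at least 2, and none passed without the fold change (smallest adjusted p = 0.154). At an unadjusted p under 0.05 lay 1707 genes (10.4%), 1038 lower (6.3%) and 669 higher (4.06%) at 24 h. DESeq2, the tool named by the study's methods, called 24 of 13936 genes (0.172%), 20 lower and 4 higher at 24 h, and limma-voom called 0. By the adjusted p alone DESeq2 gave 76 lower (0.545%) and 31 higher (0.222%). Changes below are log2 fold changes of 24 h over 4 h ± SE from the edgeR fit. They had a median of 0.01 over all genes and lay between −0.56 and 0.63 from the 5th to the 95th percentile. A fold change of 2 or more was seen in 404 genes (2.45%). For 11575 genes (70.3%), and for 9212 of the 9530 with an average of at least 10 CPM (96.7%), the 95% interval lay within a 2-fold change either way.

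**Figure D3:**
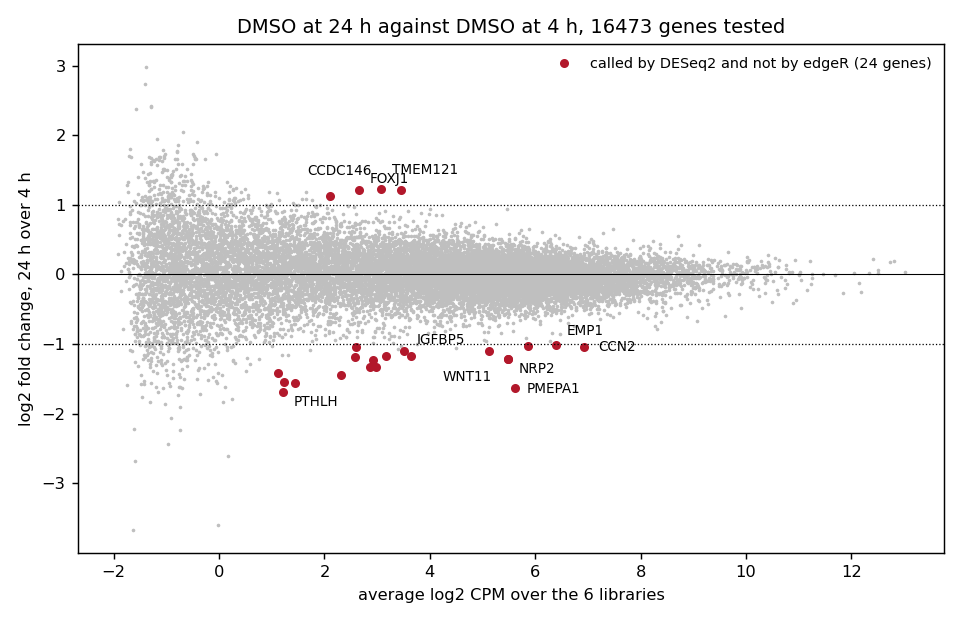
Log2 fold change of DMSO at 24 h over DMSO at 4 h against the average log2 CPM, for the 16473 genes tested. Red points are the 24 genes called by DESeq2, 20 of them lower and 4 higher at 24 h, and dotted lines mark a 2-fold change.

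With 0 calls in the main test, no gene met the rule for naming genes of this comparison, and the following were chosen after their values were seen, as genes with the smallest p-values or calls by DESeq2. PMEPA1 (chr20:57648392-57711536), a membrane protein that dampens TGFβ signalling by binding SMADs, lay at 77.0, 79.7 and 66.3 CPM at 4 h and 28.7, 29.4 and 14.0 CPM at 24 h. Every 24 h library was below every 4 h library. The change was −1.63 ± 0.251 (adjusted p = 0.215 by edgeR, 5.75e-08 by DESeq2). IL1RAP (chr3:190514051-190659750), the accessory chain of the interleukin 1 receptor, lay at 99.4, 104 and 105 CPM at 4 h and 49.3, 53.3 and 56.4 CPM at 24 h. It had the smallest p-value of all genes in the edgeR fit, with −0.95 ± 0.109 (adjusted p = 0.154 by edgeR, 5.53e-08 by DESeq2). With replicates 1 and 2 only its adjusted p was 0.0208 by edgeR, at a change of −0.97, less than 2-fold.

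CCN2 (chr6:131948176-131951372), connective tissue growth factor, lay at 147, 139.7 and 204 CPM at 4 h and 66.9, 71.1 and 99.4 CPM at 24 h. The groups did not overlap, and the change was −1.05 ± 0.196 (adjusted p = 0.325 by edgeR, 0.000100 by DESeq2). THBS1 (chr15:39581079-39599466), the matrix protein thrombospondin 1, lay at 74.3, 55.0 and 104 CPM at 4 h and 31.8, 35.2 and 47.1 CPM at 24 h. Its change was −1.03 ± 0.234 (adjusted p = 0.325 by edgeR, 0.00304 by DESeq2). In both genes replicate 3 was the highest library at each time.

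NRP2 (chr2:205681990-205798133), a co-receptor for semaphorins and VEGF, lay at 48.6, 56.8 and 80.8 CPM at 4 h and 23.3, 25.2 and 31.6 CPM at 24 h, with −1.22 ± 0.202 (adjusted p = 0.274 by edgeR, 9.1e-06 by DESeq2). EMP1 (chr12:13196723-13219941), an epithelial membrane protein, lay at 96.9, 127 and 111 CPM at 4 h and 53.2, 61.3 and 52.1 CPM at 24 h, with −1.01 ± 0.136 (adjusted p = 0.207 by edgeR, 1.1e-06 by DESeq2). WNT11 (chr11:76186325-76210736), a ligand of non-canonical Wnt signalling, lay at 43.6, 67.3 and 75.3 CPM at 4 h and 26.9, 28.6 and 24.5 CPM at 24 h, with −1.22 ± 0.195 (adjusted p = 0.247 by edgeR, 6.66e-06 by DESeq2). In each of these genes the groups did not overlap, although the 4 h libraries spread widely for NRP2 and WNT11.

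The remaining genes called lower by DESeq2 were IGFBP5 (−1.10 ± 0.247), an IGF-binding protein, the keratin KRT6A (−1.17 ± 0.250), the hormone PTHLH (−1.68 ± 0.365), the MAPK inhibitor SPRY4 (−1.33 ± 0.347), xanthine dehydrogenase XDH (−1.33 ± 0.267), PTPRZ1, RAPH1, BACH2, CPEB2, ST3GAL1, REL, ADRA1B, GPAT3 and the pseudogene AHCTF1P1. Of these, PTHLH, PTPRZ1, RAPH1 and CPEB2 averaged under 5 CPM at both times. FOXJ1 was called higher by DESeq2. It lay at 4.50, 4.34 and 2.49 CPM at 4 h and 10.1, 8.95 and 7.18 CPM at 24 h, with 1.21 ± 0.265 (adjusted p = 0.325 by edgeR, 0.00789 by DESeq2). The others called higher were CCDC146 (1.21 ± 0.383), in which the groups overlapped, TMEM121 (1.23 ± 0.278) and the pseudogene FAUP4. GPR162, an orphan receptor, was not among them, and lay at 33.6, 31.3 and 25.8 CPM at 4 h and 56.4, 54.9 and 63.3 CPM at 24 h (0.94 ± 0.136, adjusted p = 0.207 by edgeR).

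Without both libraries of replicate 3, edgeR called 5 genes lower and 0 higher at 24 h, namely PMEPA1, CCN2, NRP2, SEMA3C and TUBB. The first 3 of these lay at −1.42, −1.04 and −1.11 in that fit. TUBB, a beta tubulin, lay at 137, 121 and 309.6 CPM at 4 h and 58.8, 62.0 and 298 CPM at 24 h. Both libraries of replicate 3 were far above the other 4, and over all 6 the groups overlapped, with −0.44 ± 0.609 (adjusted p = 0.852 by edgeR). SEMA3C, a secreted semaphorin, lay at 41.5, 39.1 and 52.5 CPM at 4 h and 19.5, 20.3 and 28.6 CPM at 24 h.

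**Figure D4:**
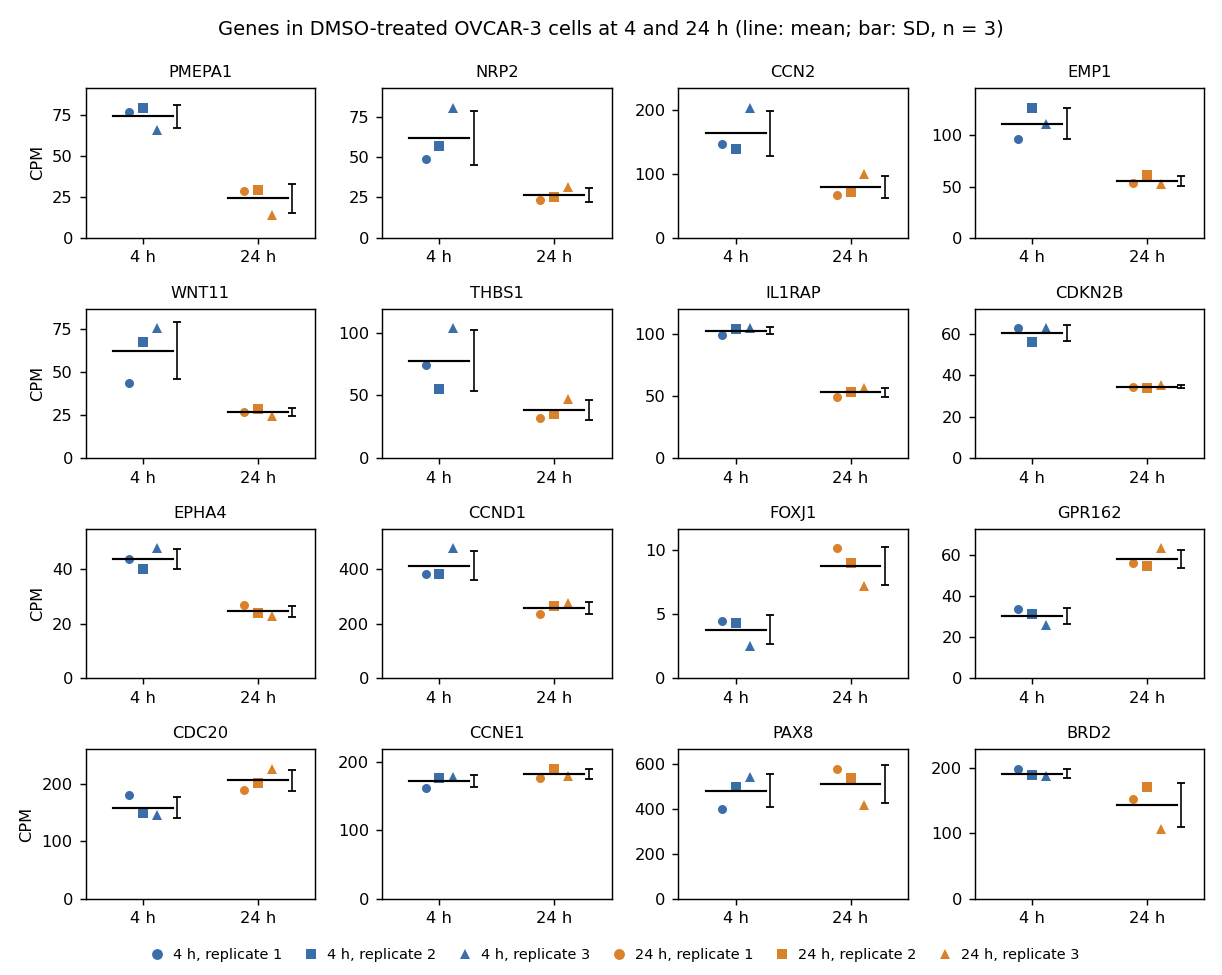
CPM of 16 genes in each DMSO library at 4 h (blue) and 24 h (orange), with the mean (line) and SD (bar) of 3 libraries; every axis starts at 0. From PMEPA1 to CCND1, and for BRD2, every 24 h library lies below every 4 h library and for FOXJ1, GPR162 and CDC20 above, while CCNE1 and PAX8 overlap.

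Gene lists were described by counts beside all genes, and the members given were likewise chosen after their values were seen. In 1711 genes (10.4%) every 24 h library lay below every 4 h library, and in 1420 (8.62%) every one lay above. No member of any list was called by edgeR in the fit of the 6 libraries. The list with the lowest median was MAPK feedback, built around the DUSP, SPRY and SPRED inhibitors of ERK signalling and also holding ETS factors and the receptor kinase EPHA4. Its 13 tested members had a median change of −0.51 (−0.46 in replicates 1 and 2), and 4 were lower without overlap: the inhibitor SPRY4, EPHA4 (−0.83 ± 0.128), the phosphatase DUSP5 (−0.67 ± 0.166) and the ETS factor ETV5 (−0.53 ± 0.204). None was higher without overlap.

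Targets of TGFβ and BMP had a median of −0.42 over 14 tested members, and −0.40 in replicates 1 and 2. Of these, 5 were lower without overlap and 0 higher. They were PMEPA1, the SMAD inhibitors SMAD7 (−0.75 ± 0.196) and SKIL (−0.56 ± 0.131), the latent TGFβ binding protein LTBP2 (−0.67 ± 0.218) and the cyclin-dependent kinase inhibitor CDKN2B. SMAD7 lay at 36.2, 41.0 and 54.0 CPM at 4 h and 21.3, 24.5 and 32.1 CPM at 24 h. DESeq2 gave an adjusted p under 0.05 to 3 of the 14, all lower. The TGFβ family receptors had a median of −0.29 (−0.13 in replicates 1 and 2) over 12 tested, with 3 lower without overlap and 0 higher. TGFBR2, the ligand-binding receptor, lay at 140.2, 125 and 108 CPM at 4 h and 85.7, 89.6 and 74.4 CPM at 24 h, with −0.58 ± 0.135 (adjusted p = 0.336 by edgeR, 0.0404 by DESeq2).

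Targets of YAP and TAZ, the co-activators of the Hippo pathway, had a median of −0.29 (−0.19 in replicates 1 and 2) over 16. Lower without overlap were 4, CCN2, tissue factor F3 (−0.98 ± 0.188), AMOTL2 (−0.29 ± 0.128) and the kinase LATS2, and higher 1, the receptor AXL, which averaged under 1 CPM at 4 h. CCN1, a close relative of CCN2, gave −0.38 ± 0.165 and overlapped. Immediate early genes, the first to respond to growth factors, had a median of −0.26 (−0.16 in replicates 1 and 2) over 27. Of these, 8 were lower without overlap and 0 higher. FOS lay at 9.47, 15.5 and 15.9 CPM at 4 h and 9.10, 7.48 and 7.00 CPM at 24 h, with −0.79 ± 0.228 (adjusted p = 0.370 by edgeR). ATF3 (−0.70 ± 0.224) and KLF10 (−0.49 ± 0.116) were also among them, as were JUN, FOSL2, SRF, MCL1 and NR4A3.

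Ribosome biogenesis factors had a median of −0.25 (−0.12 in replicates 1 and 2) over 24, with 6 lower without overlap, among them RRP12 (−0.41 ± 0.107), UTP20 (−0.46 ± 0.132) and the RNA polymerase I subunit POLR1B (−0.43 ± 0.138), and 0 higher. By contrast the 78 tested cytosolic ribosomal proteins had a median of 0.12, and −0.03 in replicates 1 and 2, and none was apart from the other time in all pairs. In replicate 3 at 24 h they took 9.23% of the counts, against 6.33% to 7.10% in the other 5 libraries. Clock genes had a median of −0.15 (−0.17 in replicates 1 and 2) over 19, with 4 lower without overlap, the repressors PER2 (−0.84 ± 0.254), PER3 (−0.70 ± 0.217), CRY2 (−0.49 ± 0.170) and BHLHE40 (−0.45 ± 0.118). Cholesterol genes had a median of −0.18 (−0.36 in replicates 1 and 2) over 23, and 1 was lower and 1 higher without overlap. HMGCS1, the enzyme that makes HMG-CoA, lay at 476, 343 and 356 CPM at 4 h and 255, 271 and 319 CPM at 24 h (−0.47 ± 0.155).

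Over the 6 libraries, genes of G2 and mitosis had the highest median of the lists with 10 or more tested members, 0.25 over 31. In replicates 1 and 2 their median was 0.139, and that of the 13 mitochondrially encoded genes was 0.141. Of the 31 genes of G2 and mitosis, 8 were higher without overlap and 0 lower. CDC20, the activator of the anaphase-promoting complex, lay at 181, 149.9 and 146 CPM at 4 h and 190.3, 202 and 227 CPM at 24 h, with 0.38 ± 0.129 (adjusted p = 0.389 by edgeR). AURKB (0.41 ± 0.128), CDC25C (0.48 ± 0.180), NUSAP1 (0.76 ± 0.275) and PTTG1 (0.32 ± 0.123) were also higher in all pairs. Genes of G1 and S had a median of 0.04 over 32, with 5 higher and 1 lower without overlap. RFC4, a clamp loader subunit, gave 0.63 ± 0.212 and the thymidylate synthase TYMS 0.39 ± 0.131.

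NRF2 targets had a median of −0.18 (−0.27 in replicates 1 and 2) over 14, with GCLM (−0.62 ± 0.128), GCLC (−0.34 ± 0.134) and OSGIN1 (−0.84 ± 0.238) lower and the haem oxygenase HMOX1 (0.99 ± 0.350) higher without overlap. For each list here, the shares over all genes tested were 10.4% lower and 8.62% higher without overlap. The 17 genes that respond to glucose and insulin had a median of −0.03 (−0.07 in replicates 1 and 2). Of these, the insulin receptor substrate IRS2 (−0.46 ± 0.140), TRIB2 (−0.59 ± 0.124) and BCL6 were lower, and PCK1 (0.86 ± 0.342), KLF15 (0.87 ± 0.379) and FBXO32 higher. In 12 oestrogen targets (median −0.12, and −0.04 in replicates 1 and 2), cyclin D1 and the co-repressor NRIP1 (−0.49 ± 0.105) were lower and none higher. CCND1 lay at 379.8, 382 and 475 CPM at 4 h and 233, 263 and 276 CPM at 24 h, with −0.68 ± 0.131 (adjusted p = 0.325 by edgeR, 0.00406 by DESeq2). Antigen presentation genes had a median of 0.13 (−0.01 in replicates 1 and 2) over 12, with HLA-C (0.46 ± 0.148), the immunoproteasome subunit PSMB9 (1.00 ± 0.248) and NLRC5 higher and HLA-B lower. Over the 6 libraries, glucocorticoid targets (median −0.04 over 13), hypoxia genes (0.06 over 16), interferon-stimulated genes (0.06 over 33), fatty acid synthesis (−0.04 over 12) and glycolysis (0.04 over 20) were closer to 0. In replicates 1 and 2 their medians were −0.03, 0.11, 0.08, −0.08 and 0.03, in the same order. Of the 16 hypoxia genes, 3 were higher and 0 lower without overlap.

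**Figure D5:**
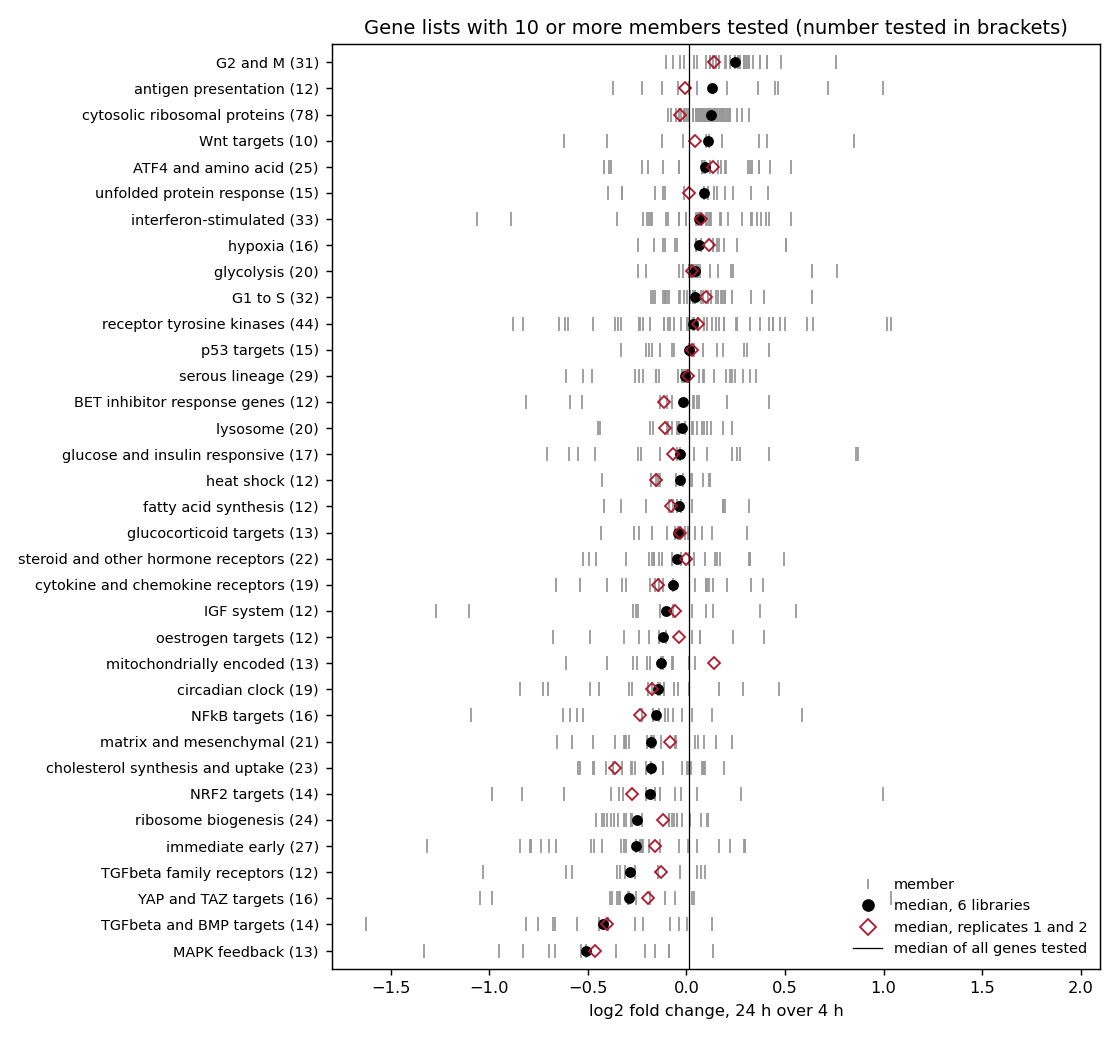
Log2 fold change of DMSO at 24 h over 4 h for the gene lists with at least 10 members tested; grey ticks are members, black circles medians over 6 libraries and red diamonds medians in replicates 1 and 2. By the medians over 6 libraries, MAPK feedback (−0.51) and TGFβ and BMP targets (−0.42) lie lowest and G2 and M (0.25) highest. MMP7, at −3.60 in the matrix list, falls outside the axis.

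Of the 29 serous genes, 2 were lower and 2 higher at 24 h in all pairs, with a list median of −0.01. Over all genes tested, 10.4% were lower and 8.62% higher in all pairs, which the serous list did not exceed. The same shares apply beside the counts of the receptor lists below. CDH1, E-cadherin, gave −0.48 ± 0.126, and SPON1 −0.26 ± 0.111. WT1 lay at 129.8, 129 and 125 CPM at 4 h and 159, 153 and 156 CPM at 24 h (0.29 ± 0.102), and SOX17 gave 0.32 ± 0.118. Among the defining markers, PAX8 gave 0.09 ± 0.159, CCNE1 0.08 ± 0.106, WFDC2 −0.02 ± 0.311 and MUC16 −0.15 ± 0.551, and the groups overlapped in each. In replicates 1 and 2 only, MUC16 turned to 0.50, PAX8 gave 0.33 (adjusted p = 0.207 by edgeR), WFDC2 −0.17 and CCNE1 0.13. For CCNE1 the 95% interval ran from −0.16 to 0.32, and for MUC16 from −1.39 to 1.09. Of the 22 tested hormone receptors 5 were lower in all pairs, VDR (−0.50 ± 0.160) and NR3C1 (−0.46 ± 0.179) among them, and 2 higher. Of 44 tested receptor tyrosine kinases, 8 were lower and 8 higher. EPHA2 (−0.35 ± 0.111) and FGFR2 (−0.48 ± 0.134) were among the first, and EPHB4 (0.44 ± 0.129) among the second. BRD2 lay at 198, 188 and 187 CPM at 4 h and 152, 170.4 and 106 CPM at 24 h, with −0.42 ± 0.167 (adjusted p = 0.445 by edgeR), and replicate 3 at 24 h was the lowest library. The groups overlapped for BRD3.

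Genes that the study follows as BET inhibitor response genes were read for how far they move without inhibitor. Some of them were picked by the study from these libraries, so the list is no independent evidence of a direction. Of 12 tested, 1 was lower in all pairs and 0 higher, against 10.4% lower and 8.62% higher over all genes tested. CDKN2B (chr9:22002903-22009305) lay at 62.8, 56.2 and 62.6 CPM at 4 h and 34.4, 33.6 and 35.1 CPM at 24 h, with −0.82 ± 0.111 (adjusted p = 0.207 by edgeR, 2.91e-05 by DESeq2). NRG1, a ligand of ERBB receptors, gave −0.53 ± 0.209, and the cytokine LIF −0.59 ± 0.289, both overlapping between times. HEXIM1, an inhibitor of P-TEFb, lay at 194, 216 and 172 CPM at 4 h and 207, 213 and 178 CPM at 24 h (0.04 ± 0.129). MYC lay at 29.6, 24.9 and 31.2 CPM at 4 h and 24.1, 24.4 and 40.4 CPM at 24 h (0.05 ± 0.210), and its value was highest in replicate 3 at 24 h. CDKN1A, which encodes p21, lay at 9.92, 10.1 and 5.21 CPM at 4 h and 9.73, 7.69 and 6.63 CPM at 24 h (−0.07 ± 0.275). The fitted change was −0.10 ± 0.128 for MAP3K3, 0.03 ± 0.219 for WNT5A, −0.14 ± 0.182 for TOPBP1 and 0.06 ± 0.108 for BCL2L1. MYCN (0.42 ± 0.332) and CCR1 (0.21 ± 0.704) stayed under 3 CPM in every library, and the interval of CCR1 ran from −1.38 to 1.79.

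Shares of whole RNA classes overlapped between the times. Mitochondrially encoded transcripts took 0.640 ± 0.211% of the counts at 4 h and 0.591 ± 0.0148% at 24 h (SD, n = 3 each, two-sided exact permutation test, p = 0.7). Cytosolic ribosomal proteins took 6.74 ± 0.388% and 7.48 ± 1.51% (exact permutation test, p = 0.7), and the 100 genes with the most counts, a set not ranked per length, 18.6 ± 0.587% and 19.0 ± 1.32% (exact permutation test, p = 0.8). With 3 against 3 libraries this test cannot give a p below 0.1.

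For comparison, 24 h against 4 h within i-BET858 called 3048 of 16781 genes (18.2%) with the same edgeR test, and within i-BET151 1386 of 16464 (8.42%). Each of these fits estimated its own spread, so the numbers of calls do not measure the size of the changes alone. Within DMSO the test called 0 genes, and 5 with replicates 1 and 2 only. The change over time differed between i-BET858 and DMSO in 2738 of 18154 genes, and between i-BET151 and DMSO in 1217, by the interaction of drug and time in a fit of all 18 libraries.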

How the data were processed

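Per the study's methods and the labels, RNA of OVCAR-3 cells was purified with RNeasy columns, made into poly-A libraries, sequenced in paired-end mode on a NovaSeq and aligned by the authors with STAR to GRCh38 (hg38). The files hold raw counts per gene, deposited by the authors from STAR's gene counting, which leaves out reads that map to several places or overlap several genes. The annotation release and the strand setting are not given in the sources used here.

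Here gene identifiers were matched to GENCODE 44 (58472 of 58825 genes), and TPM were computed from the counts and the union of exons. DMSO at 24 h and 4 h was compared in the 6 DMSO libraries with edgeR 4.0.16 (R 4.3.3; TMM factors, filterByExpr, quasi-likelihood test, Benjamini-Hochberg adjustment over all genes tested), and a gene was called where its adjusted p lay below 0.05 and it changed at least 2-fold. DESeq2 1.42.0, limma-voom (limma 3.58.1), other scalings, filters and library sets were alternatives. The code was tested on simulated data. Counting error at a count of 0 was taken as 3 counts.

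The members and lists were chosen with earlier results of these data known. Named genes were to be the 15 highest by TPM, the markers, the ends of the lineage and receptor lists, up to 12 called genes in each direction, the called list members and the BET inhibitor response genes. A few genes of the lists are counted but not reported here. With no calls, further genes were chosen after their values were seen. Replicates are described by the study as biological.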

Additional observations from a re-analysis of the deposited data

Results flagged for a closer look

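The change from 4 to 24 h differed between the inhibitor and DMSO, tested as the interaction of drug and time over all 18 libraries with edgeR, in 2738 genes for i-BET858 (1247 higher and 1491 lower with the inhibitor) and in 1217 genes for i-BET151 (454 higher and 763 lower). Both contrasts share the DMSO libraries, replicate 3 included.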

How the results depend on the processing

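The number of genes called between 24 h and 4 h was 0 in the main edgeR fit. It stayed at 0 with DESeq2's size factors in edgeR, with total library sizes, with at least 10 counts required in every library, with limma-voom, with the adjusted p alone and with a fold of 1.5. It was 24 with DESeq2, 31 with no filter on low counts, 1 with all 18 libraries in the fit (WNT11) and 5 with replicates 1 and 2 only, and 0 to 1 with each library left out in turn (1 without DMSO 24 h replicate 3, PMEPA1 at −1.36, adjusted p = 0.0256 by edgeR). The cause was not tested. With the replicate number as a block edgeR called 4 genes (NRP2, CCN2, PMEPA1 and EMP1). Libraries of the same number correlated at −0.00448, 0.328 and 0.282 in their deviations from the group means, and replicate 2 at 4 h correlated best with replicate 1 at 24 h (0.345), so the numbers were not taken to pair the samples. The list medians and mean TPM in replicates 1 and 2, the contrast of replicate 3, the interaction of drug and time and limma-voom were chosen after seeing the data.

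With each library left out in turn, the difference between times ran from −0.166 to 0.0382 percentage points for mitochondrially encoded transcripts, from −0.124 to 1.23 for ribosomal proteins and from −0.452 to 0.701 for the 100 most abundant genes. The log2 change reversed in some of these fits for TUBB (−1.65 to 0.11), CDKN1A (−0.32 to 0.0777), HEXIM1 (−0.0419 to 0.12), WNT5A (−0.19 to 0.28), MYC (−0.24 to 0.18), CCR1 (−0.76 to 0.65), TOPBP1 (−0.24 to 0.0502), PAX8 (−0.0302 to 0.21), MUC16 (−0.56 to 0.29) and WFDC2 (−0.46 to 0.26). In replicates 1 and 2 only, PAX8 lay at 0.33, WFDC2 at −0.17, CDKN1A at −0.19, MYC at −0.16, CCR1 at −0.93, TOPBP1 at 0.11 and MUC16 at 0.50, and with the replicate block CCR1 lay at −0.0117. Other changes kept their direction but shrank by over 1.5 times. In replicates 1 and 2 only, this held for VDR (−0.24), CRY2 (−0.27), LIF (−0.32), LTBP2 (−0.41), PER3 (−0.45), PTTG1 (0.19) and HMOX1 (0.53). It held without DMSO 4 h replicate 3 for NR3C1 (−0.25) and PER2 (−0.49), without DMSO 24 h replicate 3 for BRD2 (−0.24) and MYCN (0.20), and without DMSO 4 h replicate 1 for AMOTL2 (−0.18), KLF15 (0.51) and CCNE1 (0.035). BCL2L1 lay at 0.023 without DMSO 4 h replicate 2, and MAP3K3 lay at −0.033 without DMSO 24 h replicate 2.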
